A study of Oryctolagus cuniculus with 6 samples.

Results

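Heat shock proteins and the chaperones that work with them were followed in rabbit blastocysts that had been cryopreserved as embryos. Genes were taken when the array's own probe description contained "heat shock", "DnaJ", "chaperonin", "T-complex protein 1" or "cold inducible", and CHORDC1 was added by name. This gave 49 genes on 104 of the 43603 probes of the array, on which 9712 genes had a symbol, and each gene was read from its brightest probe. There were 24 DnaJ genes, 8 of the HSP70 and HSP110 family, 6 subunits of the cytosolic chaperonin and 3 small heat shock proteins. A class of 3 genes held the heat shock factors HSF1 and HSF5 and the HSF2-binding HSF2BP. There were also 2 HSP90 co-chaperones, the mitochondrial chaperonin HSPD1 and the collagen chaperone SERPINH1. The remaining gene, CPAP, entered because its description reads t-complex protein 10a-like, and it is not a chaperone by name. No probe description contained "cold inducible".

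The embryos were New Zealand White rabbit blastocysts of 6 days. Vitrified embryos had passed through a final mixture of 20% dimethyl sulphoxide and 20% ethylene glycol before their straws went into liquid nitrogen. Frozen embryos had been cooled slowly in 1.5 M dimethyl sulphoxide, at 0.3 °C per minute from seeding at -7 °C to -35 °C. Both kinds were thawed with a bath at 20 °C. They were transferred into recipient females afterwards and collected as viable embryos, while controls were untreated embryos developed in vivo. Cryopreservation and transfer into a recipient therefore cannot be told apart here. Each of 6 two-colour arrays held 1 treated and 1 control extract, with 3 arrays for each treatment, and 100 ng of RNA was labelled per extract. The labels number the control extracts 1 to 3 in both experiments, so that same-numbered arrays may share a control extract and the comparisons with control may not be independent of each other. The labels alone do not settle this, and it was not tested. The control log2 level of HBA was 10.34, 12.56 and 11.14 on vitrified replicates 1, 2 and 3. On frozen replicates 1, 2 and 3 it was 10.48, 10.33 and 9.50.

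Chaperones bind unfolded or partly folded proteins and keep them from aggregating. HSP70 proteins do so in cycles of ATP hydrolysis that DnaJ proteins start and that HSP110 proteins help to reset by exchanging nucleotide. The chaperonin TRiC encloses actin, tubulin and other clients in a chamber, and HSP90 acts late on signalling proteins with the help of co-chaperones. Heat shock factor HSF1 switches many of these genes on when unfolded protein accumulates.

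The probes of 5 genes, each 60 bases long, are shown because several probes of a gene support its value only as far as they do not overlap. Capitals mark bases shared with another probe of the same gene. The genome build of the array's coordinates is not given in the sources used here. Where the first and last coordinate lie further apart than the probe is long, as in CCT2, the probe spans an intron.

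DNAJA1 probe A_04_P031769, chr1:20391929-20391988, minus strand: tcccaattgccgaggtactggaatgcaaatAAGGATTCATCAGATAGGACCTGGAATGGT
DNAJA1 probe A_04_P031768, chr1:20391899-20391958, minus strand: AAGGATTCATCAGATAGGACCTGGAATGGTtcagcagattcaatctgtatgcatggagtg
DNAJA1 probe A_04_P031767, chr1:20391830-20391889, minus strand: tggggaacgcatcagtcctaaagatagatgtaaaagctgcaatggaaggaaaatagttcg
HSPA1A probe A_04_P003796, chr12:20630442-20630501, minus strand: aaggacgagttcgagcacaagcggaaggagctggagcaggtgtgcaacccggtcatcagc
HSPH1 probe A_04_P090079, not placed on a chromosome: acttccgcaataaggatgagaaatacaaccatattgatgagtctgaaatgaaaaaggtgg
HSPH1 probe A_04_P090078, not placed on a chromosome: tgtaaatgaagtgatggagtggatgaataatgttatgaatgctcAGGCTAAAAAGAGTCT
HSPH1 probe A_04_P090077, not placed on a chromosome: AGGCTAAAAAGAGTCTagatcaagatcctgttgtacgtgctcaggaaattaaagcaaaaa
CCT2 probe A_04_P007430, chr4:48632387-48634492, plus strand: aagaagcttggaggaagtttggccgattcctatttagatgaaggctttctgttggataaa
CCT2 probe A_04_P007429, chr4:48634509-48634567, plus strand: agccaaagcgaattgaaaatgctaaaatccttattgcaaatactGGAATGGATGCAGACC
CCT2 probe A_04_P007427, chr4:48634553-48634784, plus strand: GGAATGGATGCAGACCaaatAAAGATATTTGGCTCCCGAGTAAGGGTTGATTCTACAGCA
CCT2 probe A_04_P007426, chr4:48634573-48634804, plus strand: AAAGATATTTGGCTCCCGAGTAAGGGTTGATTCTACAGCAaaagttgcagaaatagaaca
SERPINH1 probe A_04_P014236, chr1:141174552-141174611, minus strand: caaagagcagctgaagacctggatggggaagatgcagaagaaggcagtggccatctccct
SERPINH1 probe A_04_P079305, chr1:141172278-141172337, minus strand: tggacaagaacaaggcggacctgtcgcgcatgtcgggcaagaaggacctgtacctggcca

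DNAJA1 probes A_04_P031769 and A_04_P031768 share 30 bases, CCT2 probes A_04_P007427 and A_04_P007426 share 40, and HSPH1 probes A_04_P090078 and A_04_P090077 share 16. The SERPINH1 probes share none.

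Of the 49 genes, 47 were tested, for which at least 3 of the 12 channel measurements of the probe had to stand well above background. CCT6B and HSPB7 were not, and HSPB7 was above background in 0 of 12. Of the tested genes, 38 were well above background in all 12 measurements. No spot of a member's brightest probe was saturated. The dimmest tested members were DNAJC5B, HSPA12B and HSPB9, each well above background in 4 of 12 measurements, DNAJC5G in 5, HSF5 and HSPB2 in 6 and DNAJC16 in 7. The controls of the 3 frozen arrays gave no signal well above background for DNAJC5B, DNAJC5G, HSPA12B and HSPB9.

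Values are log2 ratios of treated over control on 1 array, and the fitted change is limma's estimate over all 6 arrays with a term for the dye. The fitted change is therefore not the plain mean of the 3 ratios. Each p was adjusted by the Benjamini-Hochberg method for the 30759 probes tested, and 0.05 was the threshold. No member passed that threshold in any of the 3 comparisons, so that every member's value below is a measured ratio and not a called change. In a mixed embryo, fewer cells of a type and less RNA per cell cannot be told apart.

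In vitrified embryos most of the chaperone genes lay a little below control. The fitted change was below 0 for 34 of 47 members, with a median of -0.14, where the median of all tested probes was 0.01. A fitted change above 0 was seen for 13 of 47 members and for 51.3% of all tested probes. The ratio was below 0 on all 3 arrays for 21 of 47 members, or 44.7%, against 16.9% of all tested probes. It was above 0 on all 3 arrays for 1 member, DNAJC6, against 20.4%. Among the 38 members well above background throughout, 18 were below 0 on all 3 arrays, against 20.7% of all probes that passed the same condition, and 1 was above 0 on all 3, against 22.4%. These arrays share a fit and the genes share arrays, and no test of the group as a whole was made.

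Limma called 0 members higher and 0 lower in vitrified embryos, where it called 0.0195% of all tested probes higher and 0% lower. At an unadjusted p under 0.05, 7 members were lower, against 7.4% of all tested probes, and 2 were higher, against 9.98%. The 7 were CCT3, CHORDC1, DNAJA1, DNAJC2, HSPA1A, HSPD1 and HSPH1. The 2 were DNAJC6 and DNAJC8, and DNAJC8 is named after its value was seen. The count of 7 became 4 without vitrified replicate 1, 2 without vitrified replicate 2 and 4 without frozen replicate 2. It became 12 without frozen replicate 1 or with median centring instead of loess. The share of all tested probes was not computed under these settings, so these counts are not a result about the members.

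In frozen embryos the members had a median of -0.06 and a fitted change below 0 for 29 of 47. A fitted change above 0 was seen for 18 members and for 51.7% of all tested probes. The ratio was below 0 on all 3 arrays for 12 of 47 members, or 25.5%, against 14.7% of all tested probes, and above 0 on all 3 for DNAJC5G and DNAJC7, against 15.7%. Limma called 0 members higher, against 0.0878% of all tested probes, and 0 lower, against 0.0975%. At an unadjusted p under 0.05, 8 members were lower, against 7.18%, and 0 were higher, against 6.06%. The 8 were CCT2, CHORDC1, DNAJA1, DNAJB7, DNAJC21, HSPA1A, HSPH1 and SERPINH1. Without frozen replicate 2 the count was 2, and the share of all tested probes was not computed there. Without vitrified replicate 1, 1 member passed the adjusted threshold, DNAJB7.

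**Figure D1:**
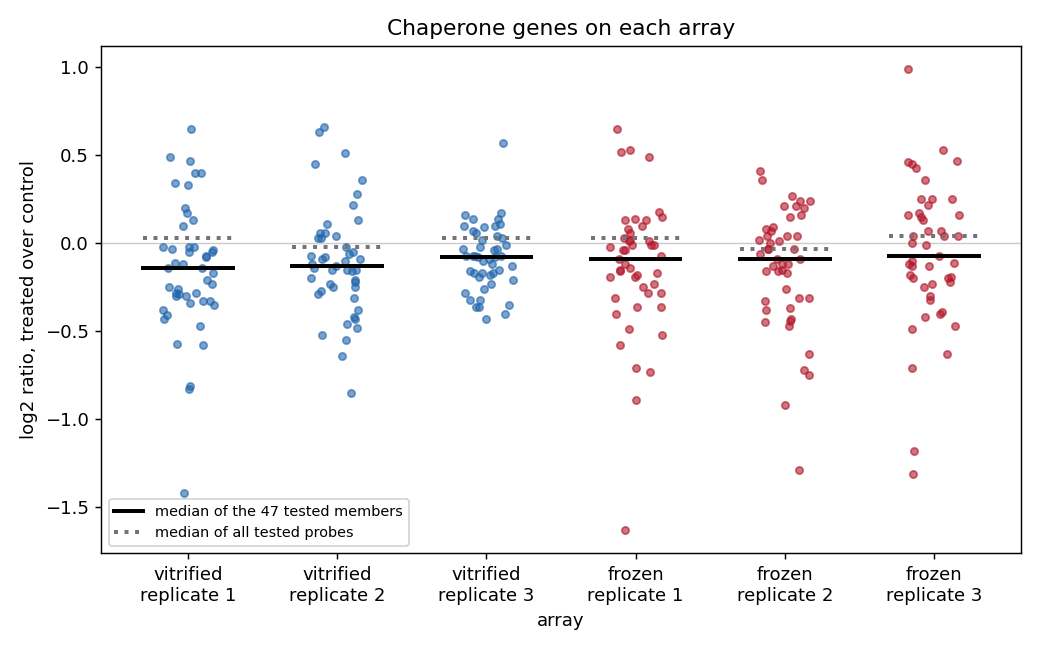
Each point is the log2 ratio of treated over control of 1 of the 47 tested members on 1 array, with vitrified arrays in blue and frozen arrays in red. The black bars are the members' medians, from -0.14 to -0.07, and the dotted bars the medians of all tested probes, from -0.03 to 0.04, so that the members' median lies below that of all probes on each of the 6 arrays.

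On single arrays the members' median was -0.14, -0.13 and -0.08 for vitrified replicates 1, 2 and 3. On the frozen arrays it was -0.09, -0.09 and -0.07. The numbers of members above 0 were 11, 14 and 14 of 47 on the vitrified arrays and 16, 19 and 21 on the frozen arrays. The spread among members was much wider than the shift of their median, since fitted changes ran from -0.69 to 0.36 in vitrified and from -1.37 to 0.33 in frozen embryos. The standard error of a fitted change against control was between 0.09 and 0.26, with a median of 0.13.

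The inducible HSP70 gene and the HSP110 gene that helps to reset HSP70 lay below control on every array. HSPA1A, the stress-inducible cytosolic HSP70, had log2 ratios of -0.30, -0.64 and -0.40 in vitrified embryos and -0.58, -0.43 and -0.25 in frozen embryos. Vitrified and frozen arrays overlapped, and all 6 were below 0. The fitted change was -0.47 ± 0.11 (SE, n = 3 arrays, limma adjusted p = 0.159) after vitrification, or 72.0% of control. After freezing it was -0.45 ± 0.11 (adjusted p = 0.163), or 73.4% of control. Mammals carry near-identical copies of this gene, and a probe in the coding sequence may read more than one of them.

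HSPH1, an HSP110 protein that exchanges nucleotide on HSP70, had ratios of -0.41, -0.21 and -0.36 in vitrified and -0.25, -0.47 and -0.71 in frozen embryos. All 6 arrays were below 0, and the lowest was frozen replicate 3. The fitted changes were -0.31 ± 0.11 (limma adjusted p = 0.239) and -0.46 ± 0.11 (adjusted p = 0.170). The 3 HSPH1 probes gave fitted changes between -0.31 and -0.28 in vitrified and between -0.46 and -0.37 in frozen embryos, and A_04_P090079 shares no base with the others.

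The other HSP70 relatives stayed nearer to control. HSPA14, which works at the ribosome with DNAJC2, was at -0.34, -0.25 and -0.23 in vitrified embryos and at 0.18, -0.26 and -0.47 in frozen embryos. Its fitted changes were -0.28 ± 0.14 and -0.19 ± 0.14. HSPA4, another HSP110 protein, had fitted changes of -0.11 ± 0.09 and -0.05 ± 0.09, and HSPA9, the mitochondrial HSP70, of -0.12 ± 0.10 and -0.04 ± 0.10. The fitted changes of HSPA13, HSPA2 and HSPA12B lay between -0.29 and 0.09 in vitrified and between -0.21 and 0.13 in frozen embryos. HSPA2, the HSP70 best known from the testis, was spread widest of the family, from -0.15 to 0.49 on vitrified and from -0.52 to 0.46 on frozen arrays.

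Among the DnaJ genes, DNAJA1 had the lowest fitted change of all members in vitrified embryos. DNAJA1 is a cytosolic partner of HSP70, and its ratios were -0.83, -0.85 and -0.17 in vitrified and -0.19, -0.72 and -0.22 in frozen embryos. All 6 arrays were below 0, and vitrified replicate 3 stood nearer to 0 than the other vitrified arrays. The fitted change was -0.69 ± 0.14 after vitrification (limma adjusted p = 0.144), or 62.0% of control, and -0.45 ± 0.14 after freezing (adjusted p = 0.222), or 73.1%. Its 3 probes gave fitted changes between -0.76 and -0.69 and between -0.50 and -0.45.

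DNAJB7 had the lowest value of any member, in frozen embryos. Its ratios were -1.63, -1.29 and -1.31 on the frozen arrays and -1.42, -0.27 and 0.14 on the vitrified arrays. The frozen arrays lay close together, while vitrified replicate 1 was as low as they were and vitrified replicate 3 was above control. The fitted change was -1.37 ± 0.26 after freezing, or 38.8% of control (limma adjusted p = 0.117), and -0.47 ± 0.26 after vitrification (adjusted p = 0.385). The second DNAJB7 probe, A_04_P087078, gave -0.92 ± 0.23 after freezing (adjusted p = 0.172), or 52.8% of control. Without vitrified replicate 1, from which the shared spread is also estimated, the frozen value was -1.42 with an adjusted p of 0.0147. Over all alternatives tried its adjusted p in frozen embryos ranged from 0.0147 to 1.

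DNAJC2, the ribosome-bound partner of HSPA14, was at -0.57, -0.20 and -0.21 in vitrified and at -0.28, -0.09 and -0.39 in frozen embryos. All 6 arrays were below 0, with fitted changes of -0.29 ± 0.11 (limma adjusted p = 0.238) and -0.22 ± 0.11 (adjusted p = 0.425). DNAJC6, the auxilin that uncoats clathrin vesicles, was the one member above 0 on all 3 vitrified arrays, at 0.40, 0.51 and 0.04. On the frozen arrays it was at -0.07, 0.24 and 0.07, and its fitted changes were 0.36 ± 0.11 (adjusted p = 0.194) and 0.12 ± 0.11 (adjusted p = 0.689). The 4 DNAJC6 probes disagreed in sign, with fitted changes from -0.21 to 0.36 in vitrified embryos, of which 2 were below 0. In frozen embryos probe A_04_P098585 of DNAJC6 was at -0.37. DNAJC8, which associates with the splicing machinery, was at 0.22 ± 0.09 and 0.21 ± 0.09.

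Over the 24 DnaJ genes, 17 were below 0 in vitrified embryos with a median of -0.07, and 10 were below 0 in frozen embryos with a median of 0.01. DNAJC5G, of the cysteine string protein family, was above 0 on all 3 frozen arrays, at 0.06, 0.09 and 0.43. It had a fitted change of 0.15 ± 0.11 there and 0.10 ± 0.11 in vitrified embryos. DNAJC13, which acts on endosomes, was at 0.34 ± 0.19 and 0.11 ± 0.19. DNAJC15, of the mitochondrial inner membrane, was at -0.20 ± 0.13 and 0.06 ± 0.13. The other 14 DnaJ genes lay between -0.29 (DNAJA3) and 0.23 (DNAJC17) in vitrified embryos and between -0.25 (DNAJC19) and 0.07 (DNAJC5B) in frozen embryos. They include DNAJB9 and DNAJB11 of the endoplasmic reticulum, at 0.08 ± 0.14 and -0.14 ± 0.16 in vitrified and at -0.18 ± 0.14 and 0.00 ± 0.16 in frozen embryos.

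**Figure D2:**
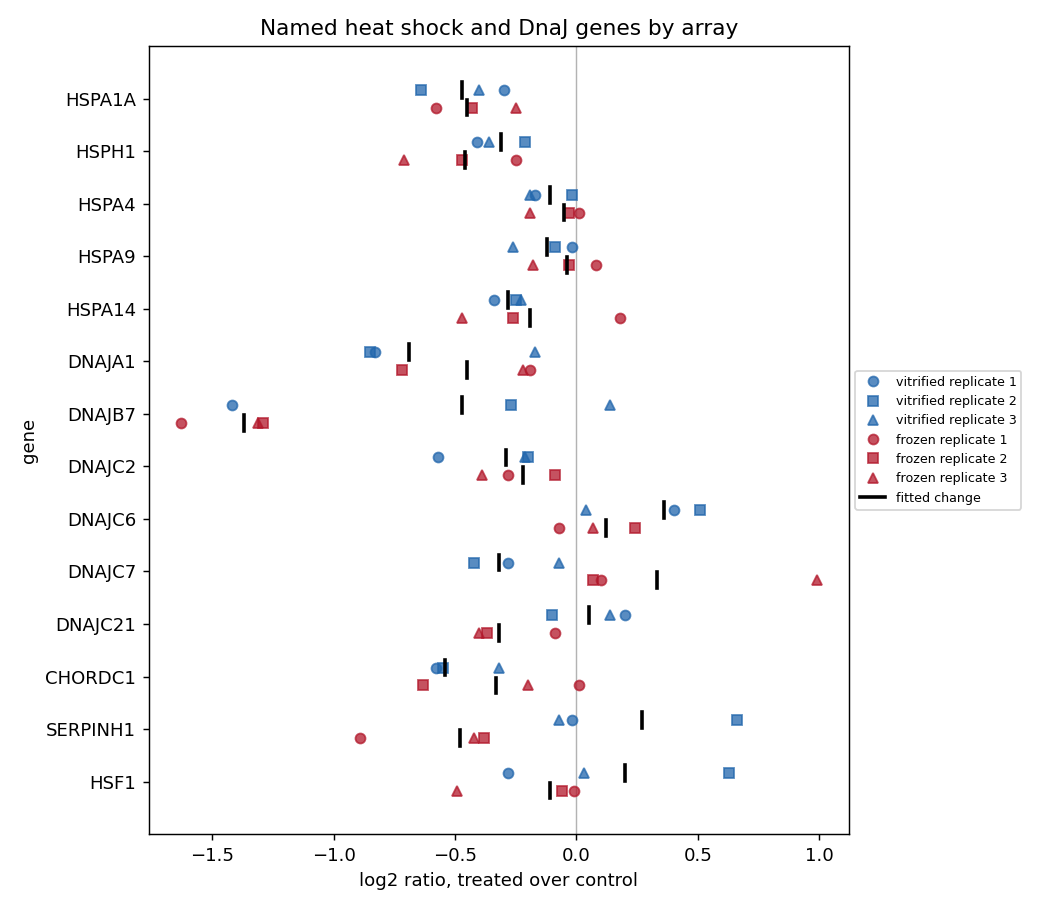
Log2 ratios of treated over control are plotted for 14 named members, with 1 symbol per array, vitrified in blue and frozen in red, and the fitted change as a black bar. HSPA1A, HSPH1, DNAJA1 and DNAJC2 lie below 0 on all 6 arrays, the frozen arrays of DNAJB7 lie between -1.63 and -1.29, and the arrays of the treatments do not overlap for SERPINH1 and DNAJC7.

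The co-chaperone CHORDC1, which binds HSP90, lay below control on 5 of 6 arrays. Its ratios were -0.58, -0.55 and -0.32 in vitrified and 0.01, -0.63 and -0.20 in frozen embryos. The vitrified arrays lay close together, and frozen replicate 1 was level with control. The fitted changes were -0.54 ± 0.11 (limma adjusted p = 0.151), or 68.9% of control, and -0.33 ± 0.11 (adjusted p = 0.287), or 79.7%. Its 2 probes gave -0.62 and -0.54 in vitrified embryos and -0.51 and -0.33 in frozen embryos. AHSA1, which speeds the ATPase of HSP90, was at 0.11 ± 0.17 and -0.06 ± 0.17.

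The chaperonin subunits lay below control in vitrified embryos as a set. All 5 tested TRiC members had a fitted change below 0 there, with a median of -0.29, and 4 of 5 had one below 0 in frozen embryos, with a median of -0.07. For the subunits with several probes, all probes had the same sign in vitrified embryos. CCT2 had ratios of -0.33, -0.16 and -0.36 on the vitrified arrays and -0.02, -0.92 and -1.18 on the frozen arrays. On this brightest probe frozen replicate 1 stood apart from the other frozen arrays and was level with control. The other CCT2 probes were at -0.23, -0.35 and -0.21 on that array. The fitted changes of CCT2 were -0.29 ± 0.21 (limma adjusted p = 0.504) and -0.72 ± 0.21 (adjusted p = 0.211), the latter 60.8% of control. All 4 CCT2 probes lay between -0.44 and -0.29 and between -0.80 and -0.72.

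CCT6A was at -0.81, -0.22 and -0.18 on the vitrified and at -0.28, 0.21 and 0.36 on the frozen arrays. Its lowest values on both sides belonged to replicate 1, and its fitted changes were -0.36 ± 0.16 and 0.14 ± 0.16. CCT8 had fitted changes of -0.36 ± 0.16 and -0.10 ± 0.16, CCT7 of -0.19 ± 0.10 and -0.07 ± 0.10, and CCT3 of -0.24 ± 0.09 (limma adjusted p = 0.260) and -0.00 ± 0.09. On the brightest CCT3 probe vitrified replicate 2 was at -0.52, while replicates 1 and 3 were at -0.02 and 0.06. The CCT3 probe at another position, A_04_P004366, was at -0.47, -0.20 and -0.14, with a fitted change of -0.26.

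Of the subunits whose descriptions lack the words of the rule, TCP1 was at -0.25 ± 0.13 and -0.11 ± 0.13. CCT5 had ratios of -0.11, -0.19 and -0.06 in vitrified and 0.13, 0.25 and 1.32 in frozen embryos. The frozen arrays were all above the vitrified arrays, and frozen replicate 3 stood far above the others. The mitochondrial chaperonin HSPD1 was at -0.11, -0.46 and -0.35 in vitrified and at -0.19, -0.17 and 0.04 in frozen embryos. Its fitted changes were -0.33 ± 0.10 (limma adjusted p = 0.206) and -0.13 ± 0.10, and its partner HSPE1 had -0.21 ± 0.09 and -0.12 ± 0.09.

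**Figure D3:**
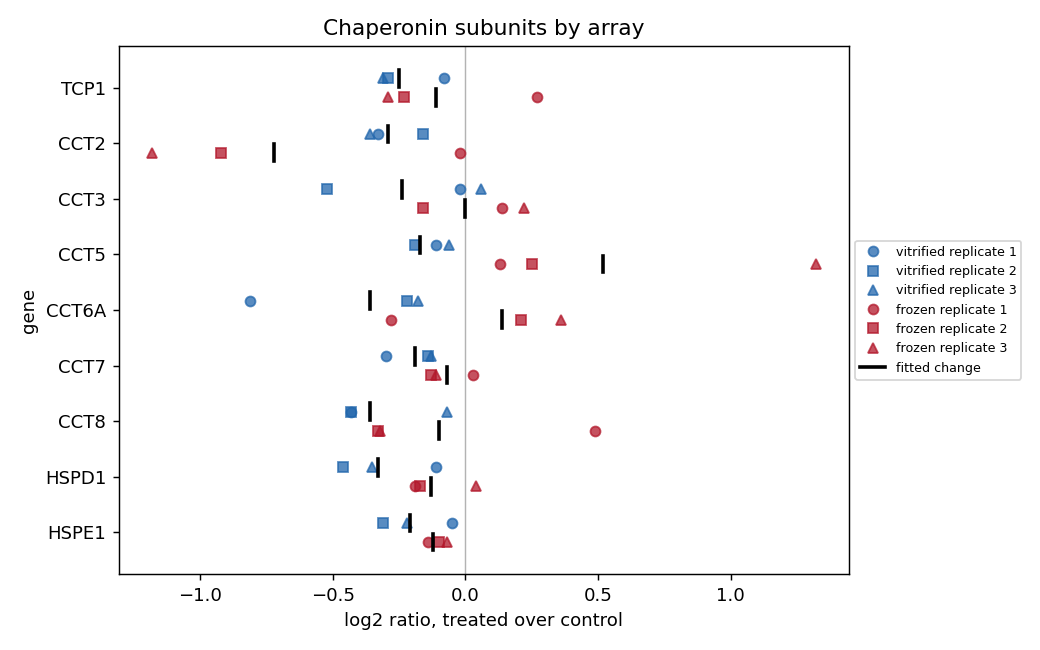
Log2 ratios of treated over control are plotted for 7 subunits of the cytosolic chaperonin and for the mitochondrial pair HSPD1 and HSPE1, with 1 symbol per array and the fitted change as a black bar. The fitted changes of all 9 genes lie below 0 in vitrified embryos (blue), and CCT2 and CCT5 have the widest spread among the frozen arrays (red).

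SERPINH1 is the endoplasmic reticulum chaperone of collagen. Its ratios were -0.02, 0.66 and -0.07 in vitrified and -0.89, -0.38 and -0.42 in frozen embryos. On this brightest probe all frozen arrays were below all vitrified arrays, and vitrified replicate 2 was the only array above 0. The fitted changes were 0.27 ± 0.13 (limma adjusted p = 0.314) and -0.48 ± 0.13 (adjusted p = 0.179), the latter 71.5% of control. The 2 SERPINH1 probes gave 0.27 and 0.18 in vitrified and -0.48 and -0.34 in frozen embryos. On the second SERPINH1 probe, A_04_P014236, the vitrified arrays were at -0.09, 0.58 and -0.20 and the frozen arrays at -0.84, -0.24 and -0.20, so that its groups overlapped. Its difference between the treatments was 0.52.

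HSF1, HSF5, HSF2BP and the tested small heat shock protein members lay near control. HSF1, the main activator of heat shock genes, was at -0.28, 0.63 and 0.03 in vitrified and at -0.01, -0.06 and -0.49 in frozen embryos. Its arrays overlapped, and its fitted changes were 0.20 ± 0.14 and -0.11 ± 0.14. HSF2BP, which binds HSF2, was at -0.14 ± 0.14 and 0.10 ± 0.14, and HSF5 at 0.05 ± 0.10 and -0.03 ± 0.10. HSPB2 was at -0.17 ± 0.18 and -0.20 ± 0.18 and HSPB9 at -0.04 ± 0.09 and -0.18 ± 0.09, both dim. CPAP, the gene that is no chaperone by name, was at -0.00 ± 0.09 and -0.11 ± 0.09.

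Vitrified and frozen embryos were then set against each other, as the difference of their fitted changes. Limma called 0 members, where it called 0% of all tested probes in either direction. At an unadjusted p under 0.05, SERPINH1, DNAJB7 and DNAJC21 were higher after vitrification, against 4.06% of all tested probes, and DNAJC7 was lower, against 3.48%. Together these are 4 of 47 members, against 7.54% of all tested probes in either direction. The vitrified and frozen ratios did not overlap for SERPINH1, with vitrified higher, against 5.75% of all tested probes. They did not overlap for DNAJC5B and DNAJC7, with vitrified lower, against 4.87%. The median difference over the members was -0.04, and 19 of 47 differences were above 0, against 53.3%.

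SERPINH1 differed by 0.76 ± 0.17 (95% interval 0.35 to 1.16, limma adjusted p = 0.539). Taken within each slide of 3 arrays, the difference was 0.61 on slide 1 and 0.72 on slide 2. All differences within slides are of plain mean ratios, without the dye term. The treatments differ in their dyes on each slide, so that dye and treatment are mixed in these values. DNAJB7 differed by 0.89 ± 0.36 (0.06 to 1.73, adjusted p = 0.647), and here the difference was 0.04 on slide 1 and 1.25 on slide 2. On the second DNAJB7 probe, A_04_P087078, the difference was 0.60 with an interval from -0.15 to 1.34, which includes 0. DNAJC21, a factor of ribosome assembly, was at 0.20, -0.10 and 0.14 in vitrified and at -0.09, -0.37 and -0.40 in frozen embryos. It differed by 0.37 ± 0.14 (0.04 to 0.70), with 0.43 and 0.42 on the slides.

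DNAJC7, which links HSP70 with HSP90, was at -0.28, -0.42 and -0.07 in vitrified and at 0.10, 0.07 and 0.99 in frozen embryos. All vitrified arrays were below and all frozen arrays above 0, and frozen replicate 3 was far from the other frozen arrays. The difference was -0.64 ± 0.23 (-1.18 to -0.11, limma adjusted p = 0.628), with -0.37 on slide 1 and -1.23 on slide 2. For HSPA1A the difference was -0.03, with an interval from -0.37 to 0.32, and for HSPH1 it was 0.15, from -0.22 to 0.51. For DNAJA1 it was -0.24, from -0.67 to 0.19. Intervals of this width leave room for differences in either direction.

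**Figure D4:**
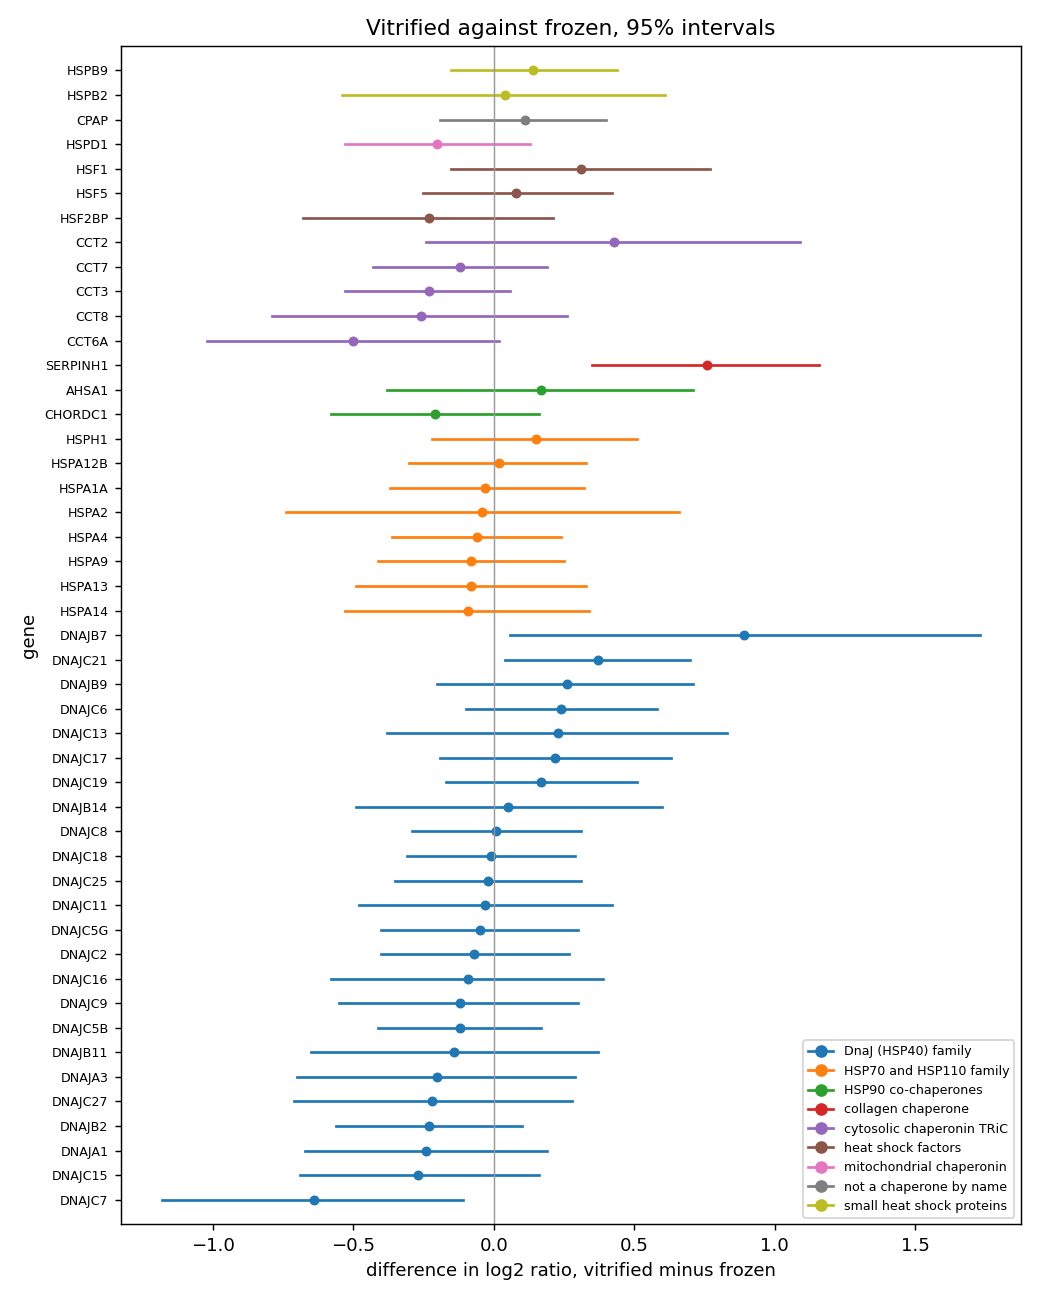
The difference in fitted log2 ratio, vitrified minus frozen, is drawn for the 47 tested members as a point with its 95% interval and coloured by class. The intervals of SERPINH1, DNAJB7 and DNAJC21 lie above 0 and that of DNAJC7 below 0, before any adjustment for the number of probes.

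Chaperone genes outside the rule were read from lists by symbol. The 16 tested genes of the same families whose descriptions lack the words of the rule had a median of -0.01 in vitrified embryos, with 7 above and 9 below 0. In frozen embryos their median was -0.03, with 6 above and 10 below 0. The members' medians were -0.14 and -0.06, and the difference between both sets was not tested. Of the HSP90 and HSP70 classes, HSP90AB1, the constitutive cytosolic HSP90, was at -0.10 ± 0.17 in vitrified and 0.13 ± 0.17 in frozen embryos. HSP90B1, the HSP90 of the endoplasmic reticulum, was at 0.29 ± 0.11 and -0.13 ± 0.11, and HSPA5, the HSP70 of the same compartment, at 0.00 ± 0.17 and 0.18 ± 0.17. The small heat shock proteins HSPB8 and CRYAB were at -0.07 ± 0.18 and 0.19 ± 0.11 in vitrified and at -0.32 ± 0.18 and -0.11 ± 0.11 in frozen embryos. CRYAA, another small heat shock protein and lens crystallin, was at -0.53, -0.10 and -0.61 in vitrified and at -1.28, -0.36 and -0.63 in frozen embryos. All 6 arrays were below 0, and its fitted changes were -0.32 ± 0.13 (limma adjusted p = 0.275) and -0.67 ± 0.13 (adjusted p = 0.123). Of 6 tested small heat shock proteins, members included, 5 were below 0 in vitrified and 6 in frozen embryos, with medians of -0.05 and -0.19. DNAJA2, a cytosolic relative of DNAJA1, was at -0.39, -0.36 and -0.13 in vitrified and at 0.38, 0.00 and 0.34 in frozen embryos. Its vitrified arrays were all below its frozen arrays, and it differed by -0.54 ± 0.14 (95% interval -0.86 to -0.21, limma adjusted p = 0.592). CRYAA and DNAJA2 are named after their values were seen. HSP90AA1, HSPB1, HSF2, HSBP1, DNAJB1, CIRBP and the TRiC subunit CCT4 were not matched to a probe by symbol and were not analysed here.

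A list of co-chaperones of HSP70 and HSP90 had 14 tested genes, the member AHSA1 among them and the others outside the rule. Limma called 0 of the 14. Of these, 11 were below 0 in vitrified embryos and 10 in frozen embryos, with medians of -0.11 and -0.10. At an unadjusted p under 0.05, 4 were lower in each treatment, against 7.4% of all tested probes in vitrified and 7.18% in frozen embryos, and 0 were higher, against 9.98% and 6.06%. AHSA2P, a relative of AHSA1, was at -0.40, -0.68 and -0.27 in vitrified and at -0.59, -0.63 and -0.37 in frozen embryos. All 6 arrays were below 0, and its fitted changes were -0.49 ± 0.10 (limma adjusted p = 0.146) and -0.57 ± 0.10 (adjusted p = 0.0927). SUGT1, an HSP90 co-chaperone, was at -0.47 ± 0.12 and -0.26 ± 0.12. BAG4, which binds HSP70, was at -0.06 ± 0.14 and -0.66 ± 0.14, and BAG1, a nucleotide exchange factor of HSP70, at -0.23 ± 0.09 and 0.04 ± 0.09.

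Prefoldin hands unfolded actin and tubulin to TRiC, and of 11 tested prefoldin and tubulin cofactor genes 6 were below 0 in vitrified and 8 in frozen embryos. PFDN4 was at -0.38 ± 0.13 and -0.45 ± 0.13, PFDN1 at 0.05 ± 0.10 and -0.25 ± 0.10, and the tubulin cofactor TBCB at 0.31 ± 0.10 and 0.01 ± 0.10. Of 7 genes of mitochondrial protein quality control, 4 were below 0 in each treatment. The inner membrane proteases YME1L1 and SPG7 were at -0.28 ± 0.11 and 0.07 ± 0.13 in vitrified and at -0.02 ± 0.11 and -0.20 ± 0.13 in frozen embryos. The prohibitin PHB1 was at 0.22 ± 0.10 and 0.17 ± 0.10. Limma called 0 genes of these 2 lists. At an unadjusted p under 0.05, 2 prefoldin and tubulin cofactor genes were higher and 2 lower in vitrified embryos, against 9.98% and 7.4% of all tested probes. In frozen embryos 2 were lower, against 7.18%. Of the mitochondrial genes 1 was lower in vitrified embryos, against 7.4%.

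Markers of the cell types were read beside the members. All 8 measured trophectoderm markers, KRT8, GATA2 and GATA3 among them, and the epiblast gene POU5F1 were well above background on every array. Trophectoderm markers were above 0 for 6 of 8 in each treatment, with medians of 0.29 and 0.30. Of them, 3 and 4 were higher at an unadjusted p under 0.05, against 9.98% and 6.06% of all tested probes. The 3 in vitrified embryos were DAB2, GATA2 and TFAP2A, and the 4 in frozen embryos DAB2, GATA2, GATA3 and TFAP2C. Levels of a list were summed on the linear scale and then put in log2, so that its brightest genes weigh most. The summed level of the trophectoderm markers was 15.40 to 15.68 in vitrified embryos against 14.89 to 15.55 in the controls. In frozen embryos it was 15.17 to 15.32 against 15.03 to 15.29. Epiblast markers had a median of 0.02 in vitrified and -0.40 in frozen embryos, where 3 of 5 were lower at an unadjusted p under 0.05, against 7.18%, and POU5F1 was at -0.82. Their summed level was 13.69 to 14.02 against 13.62 to 14.22 in vitrified and 13.00 to 13.33 against 13.31 to 14.04 in frozen embryos. Of the blood markers, 3 of 3 tested were above 0 in each treatment. Their summed level was 13.87 to 17.31 in vitrified embryos against 11.95 to 13.49 in the controls of those arrays. In frozen embryos it was 12.05 to 15.30 against 11.39 to 12.08, and the leukocyte gene PTPRC was not well above background anywhere. Uterine markers were above 0 for 3 of 3 tested in each treatment. Of these, PGR was at only 0.06 and 0.01 and was dim, well above background in 6 of 12 measurements. ESR1 of that list was not well above background anywhere. The summed levels of the uterine markers were 11.96 to 12.77 against 10.90 to 11.74 in vitrified and 10.50 to 12.01 against 10.46 to 11.57 in frozen embryos.

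Endoderm and yolk sac markers lay lower in frozen embryos, with 6 of 7 below 0 and a summed level of 11.99 to 12.60 against 13.00 to 13.74 in the controls. A fitted change above 0 was seen for 1 of the 7 and for 51.7% of all tested probes. At an unadjusted p under 0.05, 5 of the 7 were lower, against 7.18% of all tested probes. Limma called 1 of the 7 lower, APOA2 (adjusted p = 0.0423), against 0.0975% of all tested probes. TTR of that list was not well above background anywhere. In vitrified embryos 5 of 7 were below 0, and the summed level was 12.79 to 13.70 against 13.24 to 13.87. There 0 of the 7 were lower at an unadjusted p under 0.05, against 7.4% of all tested probes, and 0 were higher, against 9.98%. The part of these cell types' RNA in the chaperone values was not tested.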

How the data were processed

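RNA of rabbit blastocysts was measured on 6 two-colour Agilent arrays. The deposited intensity columns hold each channel's mean spot signal and median local background, per the file headers, read by Agilent Feature Extraction 10.10.1.1 without normalisation. The scanner software's own log10 ratio (red over green), background-subtracted and dye-normalised per the file headers, served as an alternative. Background was corrected by normexp with an offset of 50. Loess normalisation followed within arrays, giving control spots weight 0. Spots flagged as non-uniform were left out, and spots of a probe were averaged, in limma 3.58.1 under R 4.3.3. Ratios were turned to treated over control by the labels' dyes.

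Of 43603 probes, 30759 were tested, those whose signal stood well above background in 3 or more of 12 channel measurements. The model held a coefficient per treatment and a dye term, with 3 residual degrees of freedom, followed by eBayes and Benjamini-Hochberg adjustment over all tested probes. The number of arrays limits the precision, and p-values measure the spread between these extracts. No exact test was run, since 3 against 3 allows no p below 0.1. The fit was tested on simulated data.

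A symbol was matched to 21374 probes with a gene table of the rabbit assembly mOryCun1.1, 20698 matched none, 1318 matched a gene without a symbol and 213 matched several. DNAJA1, DNAJC8 and HSPA1A are named from the files' descriptions. The members and lists were chosen with earlier results of these data known. Named with full values were members past the test, the 5 smallest unadjusted p-values per comparison and direction with the same sign on all 3 arrays (same-numbered differences for vitrified minus frozen), a fixed set of well-known chaperones, and the 2 smallest p-values of each list outside the rule. Other genes are named after their values were seen. Same-numbered arrays have control extracts of the same number per the labels, and their deviations from the group means correlated at 0.0174, 0.594 and 0.165 for replicates 1, 2 and 3. These deviations were taken without the dye term. Replicate 2 alone had the treated extract in Cy3, in both treatments, so that dye and replicate cannot be told apart there.

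The alternatives were the scanner's log ratio, no background correction, an offset of 16, median centring, other filters, no dye term, slide as a covariate, a trended robust spread, a replicate block, the mean of a gene's probes and leaving out each array.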

Additional observations from a re-analysis of the deposited data

Results flagged for a closer look

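DNAJC7 was below control on all 3 vitrified arrays and above it on all 3 frozen arrays, with a vitrified minus frozen difference of -0.64 in log2 ratio. The test of that difference in limma did not pass (unadjusted p = 0.0247, adjusted p = 0.628), and the largest frozen ratio, 0.99, belonged to replicate 3. CCT5, a chaperonin subunit outside the rule, had the same arrangement with a difference of -0.69. Its test did not pass either (limma unadjusted p = 0.0453, adjusted p = 0.652). Within slides, without the dye term, the difference was -0.30 and -1.45, the latter with frozen replicate 3 as its only frozen array. DNAJA2, a DnaJ gene outside the rule, also had all vitrified arrays below 0 and all frozen arrays at or above it, with a difference of -0.54 (limma unadjusted p = 0.00558, adjusted p = 0.592). Groups of 3 arrays are too small for the search for single distant samples.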

How the results depend on the processing

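No member passed in any comparison under any alternative, with 1 exception: without vitrified replicate 1, DNAJB7 passed in frozen embryos, so that the count of frozen calls ranged from 0 to 1 when arrays were left out. With the replicate number as a replicate block, random in all comparisons and fixed for vitrified minus frozen, 0 members passed and the medians stayed at -0.14, -0.06 and -0.04. The smallest adjusted p for DNAJB7 in frozen embryos was 0.117 in the main analysis and 0.0768 with median centring. Over all probes the number of frozen calls went from 57 to 513 without vitrified replicate 1 and to 0 without frozen replicate 2, without frozen replicate 3, with slide as a covariate or with a trended robust spread.

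The members' median in vitrified embryos was -0.23 with the scanner's log ratio and -0.18 with median centring. The median of all tested probes was -0.02 and -0.04 there, against 0.01 in the main analysis. The members' median was -0.09 with the mean of a gene's probes and -0.16 to -0.09 when arrays were left out. In frozen embryos the members' median was -0.07 with the scanner's log ratio and -0.08 with an offset of 16. It was -0.09 with only probes well above background throughout, and -0.10 to -0.03 when arrays were left out. The members' median of vitrified minus frozen was -0.10 with the scanner's log ratio and -0.13 with median centring. The median of all tested probes was 0.01 and -0.04 there, against 0.02 in the main analysis. Leaving out arrays moved the members' median from -0.04 to 0.02, and it was above 0 without frozen replicate 3. The causes were not tested.

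For single genes, 132 values were recomputed under up to 18 settings, and 2217 of 2282 recomputed values kept the sign and the side of the threshold. The sign turned in 64, for genes whose main values lay between -0.18 and 0.25, and none of these values passed the test. With median centring it turned in vitrified embryos for DNAJC21 (-0.04), HSPA5 (-0.08), PFDN1 (-0.04) and SPG7 (-0.00), in frozen embryos for CCT3 and YME1L1 (0.01 each), and in vitrified minus frozen for AHSA2P (-0.03), DNAJC5G (0.03), PFDN4 (-0.04) and PHB1 (-0.02). In vitrified embryos DNAJC5G was at -0.23 with the scanner's log ratio, and HSPA5 at -0.01 with an offset of 16 and -0.08 with slide as a covariate. In frozen embryos the values without a dye term were 0.07 for CCT3, 0.06 for CRYAB, -0.06 for TBCB and 0.01 for YME1L1. YME1L1 was also at 0.01 with slide as a covariate, and DNAJC6 at -0.09 with the mean of its probes. Without background correction DNAJC5G was at 0.05 in vitrified minus frozen.

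Leaving out each array turned further signs, given as ranges. In vitrified embryos these were -0.04 to 0.33 for HSF1, -0.19 to 0.08 for HSP90AB1, -0.06 to 0.08 for HSPA5, -0.34 to 0.13 for HSPB8 and -0.12 to 0.21 for SPG7. In frozen embryos they were -0.01 to 0.13 for BAG1, -0.09 to 0.03 for CCT3, -0.03 to 0.29 for CCT6A, -0.32 to 0.08 for CCT8 and -0.23 to 0.01 for CRYAB. They were -0.12 to 0.35 for DNAJC13, -0.08 to 0.23 for DNAJC15, -0.28 to 0.13 for HSF1, -0.05 to 0.26 for HSF2BP and -0.05 to 0.38 for HSP90AB1. They were -0.05 to 0.41 for HSPA5, -0.10 to 0.03 for HSPA9, -0.03 to 0.13 for TBCB, -0.26 to 0.02 for TCP1 and -0.04 to 0.06 for YME1L1. For vitrified minus frozen they were -0.00 to 0.14 for AHSA2P, -0.17 to 0.03 for DNAJC2, -0.18 to 0.04 for DNAJC5G, -0.27 to 0.11 for HSPA14 and -0.15 to 0.06 for HSPA1A. They were -0.10 to 0.01 for HSPA4, -0.44 to 0.09 for HSPA5, -0.06 to 0.47 for HSPB8, -0.10 to 0.23 for PFDN4, -0.07 to 0.10 for PHB1 and -0.29 to 0.03 for TCP1. Signal over background limits DNAJC5B, DNAJC5G, HSPA12B and HSPB9, whose frozen controls were not well above background.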
